A study of Mus musculus with 4 samples.

Results

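Membrane carriers of sugars, amino acids and monocarboxylates were followed in 4 RNA sequencing libraries of cultured mouse microglia. The members are all genes of the SLC1, SLC2, SLC3, SLC6, SLC7, SLC16, SLC36 and SLC38 families that the count files list under a plain family number, except Slc1a2, Slc1a3, Slc2a5 and Slc7a10. The pattern matched 84 symbols, and leaving out these 4 gave 80 members of 56832 genes listed. All 80 are protein-coding in GENCODE M21 (GRCm38). The rule uses no measured value.

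Microglia are the resident macrophages of the brain. The libraries form 1 group, cMG, of C57BL/6 microglia from primary glial culture, trypsinised and sorted by flow cytometry, with replicate numbers 1 to 4. The labels give no age, genotype, treatment, sort gate or pooling, and nothing says that the libraries came from separate cultures or animals, so SDs and p-values describe library-to-library spread, possibly technical. Cultured blood stem and progenitor cells, alone or on glia, are the other groups of the study and are not analysed here.

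The libraries held 23212183 to 28469813 gene counts. The members took 0.373% to 0.387% of them. All 8 microglial markers checked were detected, with Fcrls at 5346 ± 18.0 TPM and P2ry12 at 278 ± 54.8 TPM (SD, n = 4 here and below). P2ry12 was at 319, 246, 217 and 329 TPM in replicates 1 to 4. Of these 8 markers only P2ry12 passed the test of spread described below (edgeR adjusted p = 0.00102). TPM is the count per gene length scaled to a common total, so it allows different genes to be compared. Markers of other cell types were read as CPM, the count scaled to a common library total. All 10 astrocyte markers were at 1 CPM or more in every library, as were 4 of 8 endothelial, 6 of 8 mural and fibroblast, 4 of 8 oligodendrocyte lineage and 1 of 7 neuronal markers. The endothelial list summed to 104 to 134 CPM, most of it Flt1, with Tek at 0 counts. The mural and fibroblast list summed to 76.3 to 107 CPM, most of it Acta2. The oligodendrocyte list summed to 142 to 164 CPM, most of it Mbp, with Mog at 0, and the neuronal list to 11.6 to 14.3 CPM, with Snap25 at 0. Replicate 1 stood apart: immediate-early genes summed to 1475 CPM there and to 817 to 1055 CPM in the other libraries, and the astrocyte list summed to 502 CPM there and to 677 to 851 CPM in the others. The labels give the sex as female, and Xist, the RNA of the inactive X chromosome, was at 253 to 341 CPM. The Y-linked genes Ddx3y, Kdm5d, Eif2s3y and Uty were nevertheless present in every library, at 9.48 to 41.5 CPM.

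Solute carriers move small polar nutrients across membranes. The SLC2 proteins let sugars pass down their gradient, and the SLC16 proteins carry lactate, pyruvate and related acids together with protons. Amino acid carriers differ in how they are driven. SLC1, SLC6 and many SLC38 proteins use the sodium gradient, SLC36 proteins use protons, and most SLC7 light chains exchange one amino acid for another and reach the surface only when bound to a heavy chain of the SLC3 family. Macrophages take up glucose, glutamine, arginine and cystine for energy, nitric oxide or polyamine synthesis and glutathione.

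Of the 80 members, 40 reached 1 CPM in each of the 4 libraries, a share close to the 51.8% found over the 21190 protein-coding genes with a length. A mean of 10 TPM or more was reached by 26 members (32.5%), beside 36.3% of protein-coding genes, so neither share was above the background. The members' median was 0.654 TPM, against 1.71 TPM for protein-coding genes. Another 11 members lay between 1 and 10 TPM, 22 were detected at a lower mean, and 21 were without a count in any library. The level was concentrated in few genes. The 10 highest members held 77.9% of the members' summed TPM, and 4 members were above 100 TPM.

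**Figure D1:**
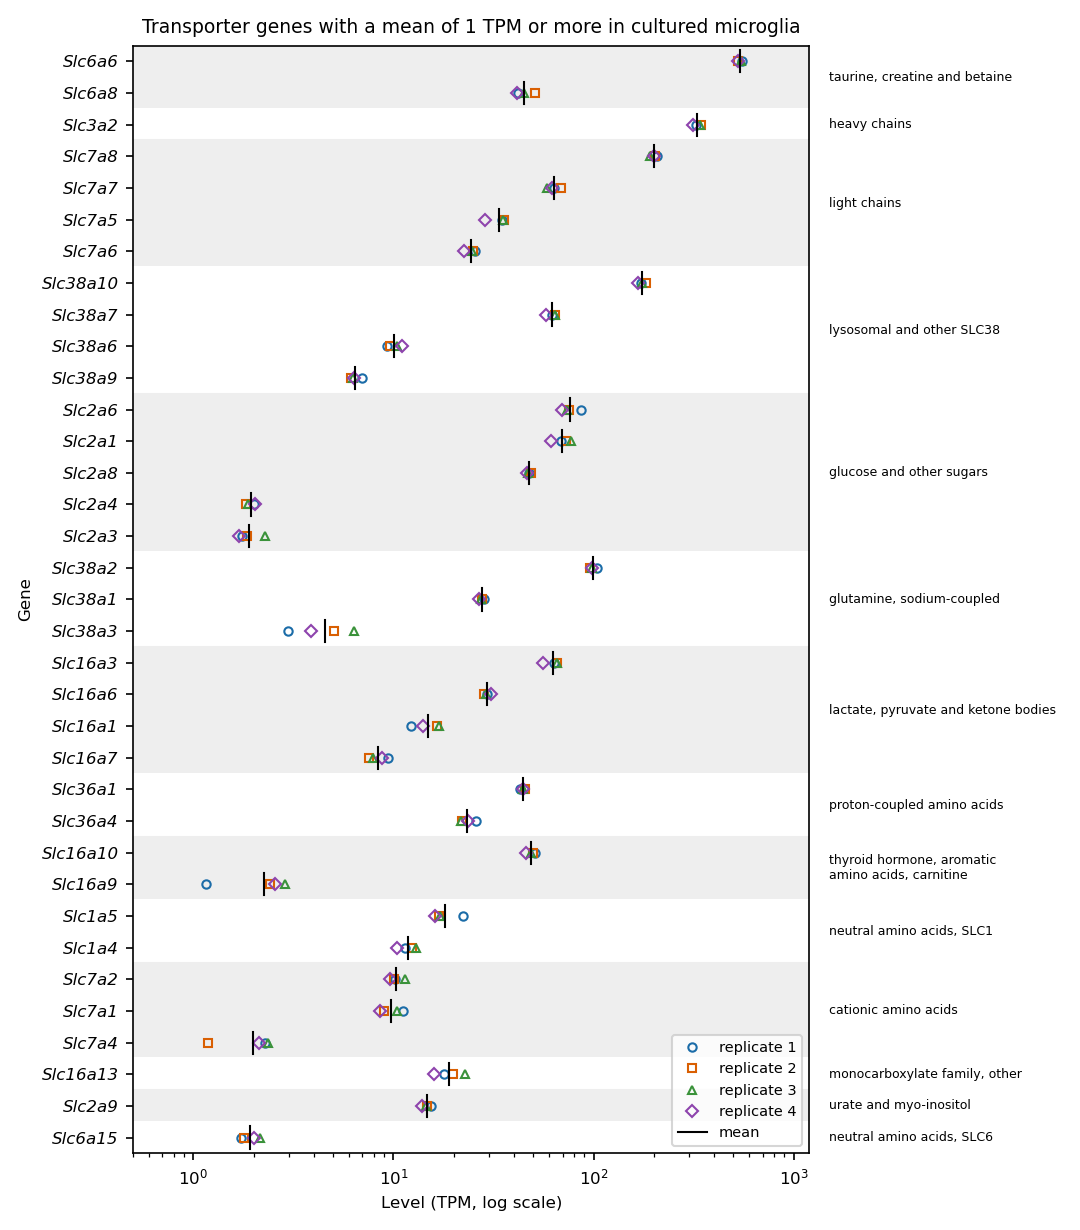
Level of 35 of the 37 members with a mean of 1 TPM or more, in TPM on a log scale, grouped by substrate class with the highest summed class at the top. Each symbol is 1 of the 4 libraries and the black line is the mean; Slc6a6 and Slc3a2 lie farthest right, and the libraries lie widest apart for low genes such as Slc16a9, Slc38a3 and Slc7a4.

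The highest member was Slc6a6, the sodium-coupled carrier of taurine, an osmolyte and antioxidant amino sulfonic acid. It was at 549.7, 528, 544 and 530.1 TPM in replicates 1 to 4, with 30970 to 37901 counts per library. It alone took 25.0% of the members' summed TPM. The creatine carrier Slc6a8 followed in the same family at 41.9, 51.1, 45.0 and 41.3 TPM. Slc6a6 minus Slc6a8 was 3.56 ± 0.153 in log2(TPM + 1), positive in 4 of 4 libraries. This is 1 of 11 pairs of related carriers whose within-library differences were tested by exact permutation of their signs, two-sided. That exact test cannot go below p = 0.125 with 4 libraries, so no pair could pass 0.05. Every pair whose libraries all had the same sign had an exact permutation p = 0.125, or 0.153 after Benjamini-Hochberg adjustment over the pairs.

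The other SLC6 genes named here were low. The glycine carrier Slc6a9 was at 0.987 ± 0.329 TPM, the neutral amino acid carrier Slc6a15 at 1.92 ± 0.199 TPM and the vesicular carrier Slc6a17 at 0.605 ± 0.113 TPM. Other genes cover 30.2% of the exon bases of Slc6a9 (B4galt2 among them), so its reads may not be told apart from theirs. The betaine carrier Slc6a12, the GABA carriers Slc6a11 and Slc6a13, and Slc6a19 had at most 11 counts in any library. The monoamine carriers of noradrenaline (Slc6a2), dopamine (Slc6a3) and serotonin (Slc6a4) had 0 counts, as had the glycine and proline carriers Slc6a5 and Slc6a7 and Slc6a14, Slc6a16, Slc6a18 and Slc6a21. A count of 0 allows up to 0.105 to 0.129 CPM, depending on the library (3 counts, counting error only).

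Slc3a2, the heavy chain also known as the surface antigen 4F2, was the next member in order. It was at 324, 344, 339 and 315 TPM in replicates 1 to 4. Its family partner Slc3a1, the heavy chain of the renal cystine carrier, had 0 counts. Prepl covers 26.5% of the exon bases of Slc3a1, which could lower its count if ambiguous reads were discarded. Among the light chains that pair with Slc3a2, Slc7a8 stood highest, at 208, 203, 192 and 199.9 TPM; it exchanges large and small neutral amino acids. Slc7a7, which exchanges cationic for neutral amino acids with sodium and is known for its role in macrophages and lysinuric protein intolerance in humans, was at 63.7, 68.7, 58.5 and 62.0 TPM. Slc7a5, the large neutral amino acid exchanger that supplies leucine, was at 34.7, 35.6, 35.2 and 28.7 TPM. Slc7a6, a close relative of Slc7a7, was at 25.5, 24.9, 24.8 and 22.6 TPM. The order Slc7a8, Slc7a7, Slc7a5, Slc7a6 held in all 4 libraries.

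Slc7a11, the last of the 5 light chains compared here, imports cystine in exchange for glutamate and limits glutathione synthesis in many cell types. It was at 0.997, 0.673, 0.564 and 0.544 TPM, from 54 to 109 counts per library, and held 0.214% ± 0.0584 of the summed TPM of the 5 light chains. Slc7a8 held 62.2% ± 1.14, Slc7a7 19.6% ± 0.781, Slc7a5 10.4% ± 0.914 and Slc7a6 7.58% ± 0.322. Replicate 1 was highest for Slc7a11, but the spread between libraries did not pass the test described below (it is among the members not called). The remaining light chains were at or close to 0: Slc7a13 and Slc7a15 had at most 5 counts in any library, and Slc7a9 and Slc7a12 had 0.

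**Figure D2:**
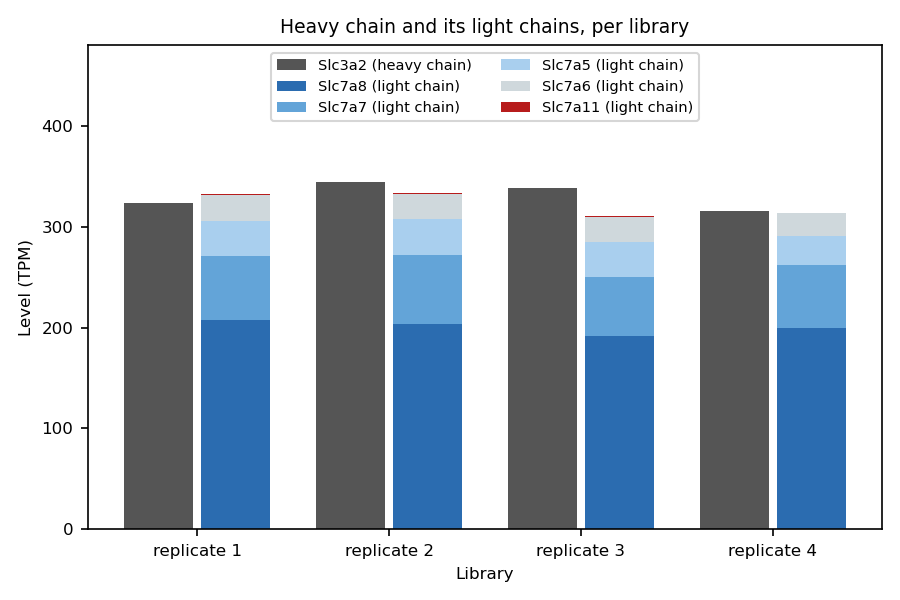
TPM per library of the heavy chain Slc3a2 (left bar) and, stacked, of 5 light chains that pair with it (right bar). There are 4 libraries, with 1 value per bar segment and no error bars. The bars of a library are close in height, 315 TPM for Slc3a2 and 314 TPM for the light chains in replicate 4, and Slc7a11 is a thin line at the top of the stack.

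The heavy chain and these 5 light chains were close in sum. Slc7a10 is not a member and is not in the sum. Slc3a2 averaged 331 ± 13.2 TPM and the 5 light chains together 323 ± 11.95 TPM. The difference of log2(TPM + 1) was 0.04 ± 0.0687, positive in 3 of 4 libraries (exact permutation p = 0.38), with a range from -0.04 to 0.12. With lengths ignored the mean turned to -0.32, so the near equality depends on the lengths used. Within the light chains Slc7a5 lay below Slc7a8 by a log2 difference of -2.55 ± 0.149, and Slc7a7 above Slc7a6 by 1.34 ± 0.106, each with the same sign in 4 of 4 libraries. With lengths ignored Slc7a7 minus Slc7a6 was 0.89.

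The start regions of these genes, from RefSeq on GRCm38.p6, are shown for the heavy chain, its most abundant light chain and Slc7a11, the lowest of the 5 light chains, with a lysosomal carrier for contrast. Each window runs from 250 bases before to 50 after the annotated start, read along the gene's strand. Capitals mark matches, on either strand, to TGATGNAA, the C/EBP-ATF response element through which ATF4 acts in amino acid shortage, and to the E-box CACGTG, the core of elements bound by TFEB and related factors; the motifs do not overlap in these windows. The windows lie at chr19:8713848-8714147 for Slc3a2 (minus strand), chr14:54781837-54782136 for Slc7a8 (minus strand), chr3:50443564-50443863 for Slc7a11 (minus strand) and chr11:55204090-55204389 for Slc36a1 (plus strand).
Slc3a2: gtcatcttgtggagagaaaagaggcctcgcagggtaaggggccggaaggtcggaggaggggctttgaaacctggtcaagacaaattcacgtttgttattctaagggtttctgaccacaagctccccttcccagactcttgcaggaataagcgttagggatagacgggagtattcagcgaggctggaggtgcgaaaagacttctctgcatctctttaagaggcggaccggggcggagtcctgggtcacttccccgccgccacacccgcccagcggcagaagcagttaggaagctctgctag
Slc7a8: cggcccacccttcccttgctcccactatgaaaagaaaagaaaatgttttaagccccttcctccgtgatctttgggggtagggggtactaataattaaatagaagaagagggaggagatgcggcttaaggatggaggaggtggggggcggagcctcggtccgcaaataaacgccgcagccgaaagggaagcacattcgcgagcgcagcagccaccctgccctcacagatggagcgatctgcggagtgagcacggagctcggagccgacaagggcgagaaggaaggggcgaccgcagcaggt
Slc7a11: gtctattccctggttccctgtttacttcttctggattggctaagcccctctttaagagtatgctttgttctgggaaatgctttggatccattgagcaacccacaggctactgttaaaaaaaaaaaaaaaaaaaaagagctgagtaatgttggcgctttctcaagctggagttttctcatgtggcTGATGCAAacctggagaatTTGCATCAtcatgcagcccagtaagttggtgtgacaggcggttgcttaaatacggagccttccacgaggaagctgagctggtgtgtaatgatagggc
Slc36a1: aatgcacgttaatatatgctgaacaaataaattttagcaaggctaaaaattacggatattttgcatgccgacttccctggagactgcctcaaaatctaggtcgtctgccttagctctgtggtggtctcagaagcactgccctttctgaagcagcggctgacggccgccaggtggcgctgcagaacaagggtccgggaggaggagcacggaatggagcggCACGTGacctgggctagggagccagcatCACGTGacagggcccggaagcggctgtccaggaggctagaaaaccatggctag

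The Slc7a11 window held 2 matches to the response element, on opposite strands, and the windows of Slc3a2 and Slc7a8 held none. The Slc36a1 window held 2 E-boxes. Over all 32851 windows in the RefSeq table, 3.97% held the response element and 7.15% the E-box. Of the 56 members with a window, 4 held the response element (Slc1a4, Slc6a21, Slc7a7 and Slc7a11), and 10 held the E-box. Members are counted per gene, with a match in any of its windows, and the shares over all windows are per window. The counts and the shares are therefore not on the same scale, and enrichment was not tested. Among those at 10 TPM or more with a window (18 members), 2 held the response element and 3 the E-box, namely Slc16a1, Slc36a1 and Slc38a7. The RNA of Atf4 was at 252, 235, 284 and 259 TPM, and its protein was not measured. A match describes letters in a window and not binding.

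The lists of genes that act beside these carriers were read in the same libraries. Among genes of cystine use and glutathione, the peroxidase gene Gpx4 was at 376 ± 27.0 TPM, the thioredoxin reductase gene Txnrd1 at 80.8 ± 2.91 TPM and the glutathione synthetase gene Gss, the lowest, at 6.50 ± 0.452 TPM. In the amino acid response list, Atf4 was followed by the stress sensor gene Sesn2 at 64.7 ± 4.45 TPM, and Chac1, which degrades glutathione, was lowest at 3.74 ± 1.14 TPM. All 6 genes of the first list and all 10 of the second were at 1 CPM or more in every library, and 0 of the 16 passed the test of spread.

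The cationic amino acid carriers Slc7a1 and Slc7a2, which bring in arginine and lysine, were lower in TPM than Slc7a8, Slc7a7, Slc7a5 and Slc7a6. On CPM, Slc7a1 averaged 33.2 and Slc7a2 27.8, beside 36.7 for Slc7a5 and 32.9 for Slc7a6. Being lower than each of these light chains thus depends on the lengths used. Slc7a1 was at 11.1, 9.0, 10.4 and 8.56 TPM in replicates 1 to 4. Slc7a2, known in macrophages for supplying arginine to nitric oxide synthase and arginase, was at 10.1, 10.1, 11.4 and 9.65 TPM. The values of the genes overlap, and their log2 difference, Slc7a1 minus Slc7a2, was -0.08 ± 0.135 with 1 of 4 libraries positive (exact permutation p = 0.25). With lengths ignored (CPM) it was 0.24, and 0.36 with the longest transcript as the length, each positive on average, so their order was not settled. Of the other genes grouped with them, Slc7a4 was at 1.98 ± 0.542 TPM, Slc7a3 had at most 8 counts in any library and Slc7a14 had 0. P2rx6 covers 13.3% of the exon bases of Slc7a4. Among enzymes that use arginine, glutamine and their products, Glul, which makes glutamine, was highest at 648 ± 16.5 TPM and Glud1, which breaks down glutamate, next at 266 ± 16.3 TPM, while arginase Arg1 was lowest at 0.0790 ± 0.123 TPM. Of these 10 enzyme genes 8 were tested and 0 passed (1, Ass1, at an unadjusted edgeR p under 0.05).

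Among the SLC38 and SLC1 carriers of glutamine and other small neutral amino acids, Slc38a2 was highest. The light chain Slc7a8, given above, was higher, at a mean of 201 TPM. Slc38a2, which is sodium-coupled and adaptive to amino acid supply, was at 104, 95.7, 98.2 and 98.3 TPM. Its relative Slc38a1 was at 28.2, 27.7, 27.5 and 26.8 TPM and lay below it in every library. The difference, Slc38a2 minus Slc38a1, was 1.81 ± 0.0431 in log2(TPM + 1); it was 1.12 with the longest transcript as the length and 0.88 on CPM. Slc38a3, the glutamine carrier of astrocytes and liver, was at 4.56 ± 1.47 TPM, and Slc38a4 and Slc38a5 had 0 counts. In the SLC1 family the neutral exchanger Slc1a5, a main glutamine importer of dividing cells, was at 22.2, 16.9, 17.2 and 16.1 TPM, and Slc1a4, which prefers alanine and serine, at 11.4, 12.4, 13.0 and 10.4 TPM. Slc1a5 lay above Slc1a4 by 0.57 ± 0.239, in 4 of 4 libraries, most in replicate 1 (0.90); the difference was 1.09 with the longest transcript as the length and 0.36 with a pseudocount of 10.

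The glutamate carriers among the SLC1 members were low; Slc1a2 and Slc1a3, the main glutamate carriers of astrocytes, are not members, and Slc1a3 is counted in the astrocyte list. Slc1a6, known from Purkinje cells, was at 0.613 ± 0.0746 TPM with 8 to 13 counts per library. Slc1a1, the neuronal glutamate and cysteine carrier, had at most 2 counts in any library, and the retinal Slc1a7 had 0. Another gene, 4430402I18Rik, covers 31.9% of the exon bases of Slc1a1, which could lower its count if ambiguous reads were discarded.

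Of the 6 SLC38 carriers of the lysosome or of less settled place and substrate, 4 reached 1 CPM in every library, 3 reached 10 TPM and 2 had no count. Slc38a10, an intracellular family member whose transport role is less well known, was at 173, 182, 175 and 167 TPM. Slc38a7, which exports glutamine from lysosomes, was at 62.1, 64.5, 64.5 and 58.2 TPM. Slc38a9, the lysosomal arginine sensor upstream of mTORC1, was at 6.95, 6.10, 6.28 and 6.36 TPM, below Slc38a7 in every library; Slc38a7 minus Slc38a9 was 3.09 ± 0.111 in log2(TPM + 1), or 1.24 with lengths ignored. Slc38a6, whose substrates are less well known, was at 9.29, 9.56, 10.4 and 11.0 TPM, and Slc38a8 and Slc38a11 had 0 counts.

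The proton-coupled exporter Slc36a1, whose window is printed above, was at 43.0, 45.4, 44.2 and 44.4 TPM. Its relative Slc36a4 was at 25.8, 22.0, 21.9 and 23.5 TPM, and Slc36a1 minus Slc36a4 was 0.90 ± 0.135, positive in 4 of 4 libraries. The kidney carrier Slc36a2 had at most 3 counts in any library and Slc36a3 had 0. Other carriers of like substrates outside these families were led by Slc15a3, a lysosomal peptide and histidine carrier, at 326 ± 18.5 TPM and Slc37a2, a sugar phosphate carrier, at 230.2 ± 11.3 TPM. The lowest was the sodium-coupled glucose carrier Slc5a1, with 0 counts. Of these 12 genes, 10 were at 1 CPM or more in every library; Slc66a1 had no matched length.

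**Figure D3:**
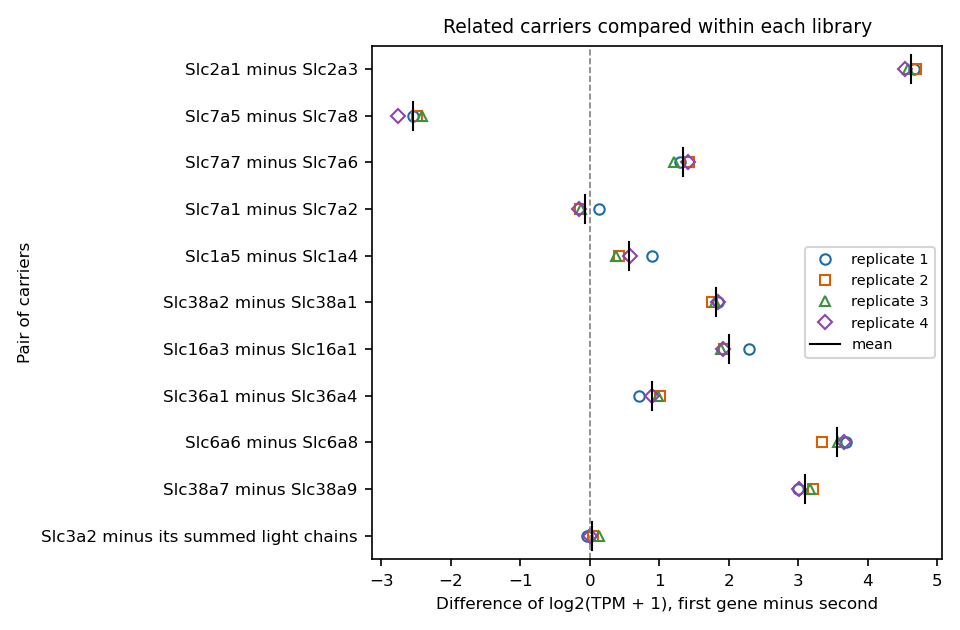
Difference of log2(TPM + 1) within each library for 11 pairs of related carriers, the first gene minus the second; each symbol is 1 library, the black line is the mean and the dashed line is 0. In 9 pairs the 4 libraries lie on the same side of 0, and they straddle it for Slc7a1 against Slc7a2 and for Slc3a2 against its summed light chains.

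Among the sugar carriers that are members, 3 genes made up most of the class. Slc2a5 is not a member and is not in the class. Slc2a6, whose substrate is less well settled and which is known in macrophages, was at 86.9, 75.7, 73.9 and 69.3 TPM. Slc2a1, the general glucose importer, was at 68.8, 72.9, 76.9 and 61.3 TPM, and the values of the genes overlap; Slc2a6 was higher in 3 of 4 libraries. Slc2a8, an intracellular glucose carrier, was at 47.9, 48.6, 47.1 and 46.5 TPM. Slc2a3, the high-affinity importer of neurons, was at 1.76, 1.85, 2.27 and 1.68 TPM, and Slc2a1 minus Slc2a3 was 4.62 ± 0.0734 in log2(TPM + 1), positive in 4 of 4 libraries. With a pseudocount of 10 it was 2.75, since Slc2a3 is low.

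The remaining sugar carriers were low. The insulin-responsive Slc2a4 was at 1.94 ± 0.104 TPM and Slc2a12 at 0.939 ± 0.0875 TPM, Slc2a10 had 5 to 17 counts per library, and Slc2a2, the importer of liver and pancreatic islets, and Slc2a7 had 0. The urate carrier Slc2a9 was at 15.5, 14.7, 14.5 and 13.9 TPM, and the myo-inositol carrier Slc2a13 at 0.151 ± 0.0735 TPM. Of the enzymes that act next on imported sugar and lactate, the lactate dehydrogenase subunits Ldha (287 ± 16.6 TPM) and Ldhb (151 ± 13.0 TPM) were highest and the hexokinase gene Hk1 lowest, at 25.5 ± 2.47 TPM. All 6 were tested and 0 passed.

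Monocarboxylate carriers were led by Slc16a3, the exporter of lactate from glycolytic cells, at 63.4, 66.0, 65.4 and 55.8 TPM. Slc16a1, which carries lactate and ketone bodies in either direction, was at 12.2, 16.5, 16.9 and 14.1 TPM, and Slc16a7, the high-affinity neuronal carrier, at 9.39, 7.59, 7.87 and 8.76 TPM. The levels of the 3 genes do not overlap in TPM. With lengths ignored Slc16a7 lay above Slc16a1, at 26.6 to 32.3 CPM beside 15.7 to 22.2 CPM, so their order depends on the lengths used. Slc16a3 minus Slc16a1 was 2.01 ± 0.188 in log2(TPM + 1), positive in 4 of 4 libraries. Slc16a6, linked to ketone body export in zebrafish, was at 29.2, 28.5, 28.9 and 30.7 TPM; other genes (Amz2 and Arsg among them) cover 23.5% of its exon bases. Bsg, the chaperone that brings Slc16a1 and Slc16a3 to the surface, was at 624 ± 26.1 TPM, and Emb, the partner of Slc16a7, at 1.14 ± 0.250 TPM. In the list of chaperones and trafficking genes Txnip, which limits glucose uptake, was highest at 679 ± 28.2 TPM, Emb was lowest and 0 of 5 passed the test of spread.

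Slc16a10, a carrier of aromatic amino acids and thyroid hormone, was at 51.1, 49.6, 48.6 and 46.0 TPM. Slc16a13, whose substrate is less well known, was at 17.8, 19.7, 22.7 and 15.9 TPM. The carnitine carrier Slc16a9 was at 2.25 ± 0.754 TPM, with other genes over 23.5% of its exon bases. The creatine carrier Slc16a12, the pyruvate carrier Slc16a11, the retinal lactate carrier Slc16a8 and Slc16a4, Slc16a5 and Slc16a14 were each under 1 TPM, with at most 24 counts in any library.

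Whether any member varied between the libraries more than genes of like abundance was tested per gene across the whole table, as the edgeR deviance from 1 mean with a trended dispersion and Benjamini-Hochberg adjustment over 12879 genes. Of the 80 members, 41 passed the abundance filter, and 0 of these 41 were called at an adjusted p under 0.05, beside 1.11% of all genes tested. At an unadjusted p under 0.05 there was 1 member (2.44%), beside 6.79% of all genes tested; DESeq2 marked 0 members as dispersion outliers. The 41 members had a median SD of 0.11 on the log2 scale, beside 0.12 for all genes tested, and a median of 31.6 CPM, beside 23.5 CPM. Among the 26 members at 10 TPM or more the coefficient of variation ran from 1.94% for Slc2a8 to 15.3% for Slc1a5, with a median of 5.91%. In the order of these 26 genes, 12 of the 25 neighbouring pairs kept their order in all 4 libraries, and in 13 the mean difference was smaller than its SD.

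That member was Slc38a3, at 4.55, 7.85, 9.95 and 6.08 CPM in replicates 1 to 4. Its edgeR adjusted p was 0.43, the smallest among the members. With a common dispersion in place of the trend, 3 members passed, Slc38a3 and Slc16a9 among them. Slc16a9 was at 1.30, 2.77, 3.27 and 2.95 CPM. Slc38a3 and Slc16a9 were both lowest in replicate 1. So were 30.7% of all genes tested, beside 7 of the 41 members tested (17.1%). The astrocyte list summed to 502, 779, 851 and 677 CPM in the same order, also lowest in replicate 1, and Gfap, Clu, Sparc and Slc1a3 of its 10 genes passed the test of spread. The endothelial list (104, 130, 134 and 122 CPM, 0 of 5 tested genes called) and the mural and fibroblast list (76.3, 97.3, 107 and 76.9 CPM, with Acta2 called of 6 tested) were lowest in replicate 1 too. The genes of these lists did not all follow the sums. Acta2, Tagln and Pdgfrb were lowest in replicate 1, but Col1a1, Col1a2, Dcn and Lum in replicate 3 and Rgs5 in replicate 4. Of the endothelial genes, Cdh5, Flt1, Kdr, Slco1a4 and Mfsd2a were lowest in replicate 1. Cldn5 and Pecam1, each under 1 CPM, were highest there. In these bulk libraries fewer cells of a type and less RNA per cell cannot be told apart. The part of RNA from these cell types in the levels of these carriers was not tested.

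**Figure D4:**
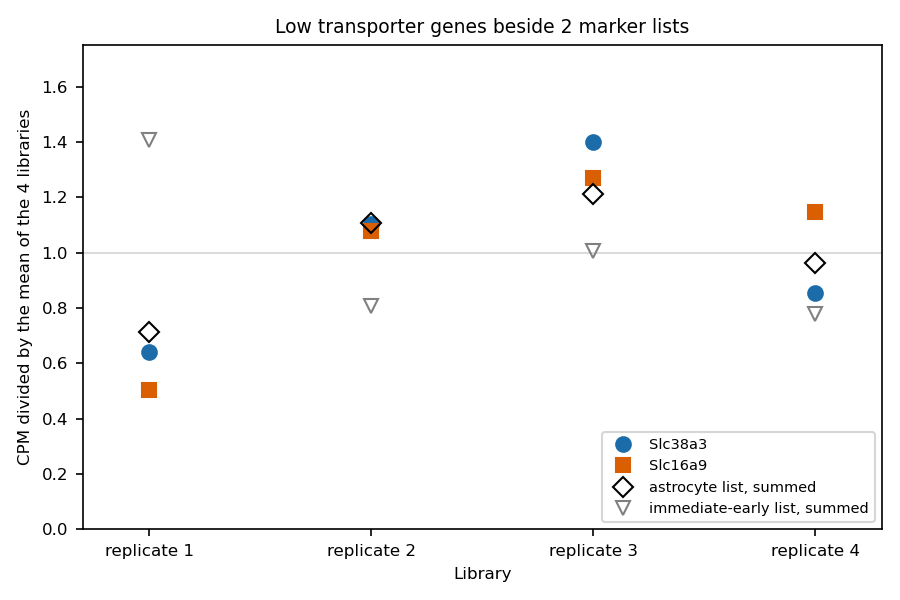
CPM of Slc38a3 and Slc16a9 (filled symbols) and summed CPM of the astrocyte and immediate-early lists (open symbols), each divided by its mean over the 4 libraries, 1 point per library. In replicate 1 both genes and the astrocyte list lie below 1 and the immediate-early list lies above it.

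Small differences ran in a common direction in replicate 4. On TMM-scaled CPM, 21 of the 41 members tested (51.2%) were lowest in replicate 4, beside 21.7% of all genes tested, and 3 (7.32%) were highest there, beside 22.4%. The share was also 51.2% on CPM without TMM scaling and with DESeq2 size factors. The members' summed level was 2070 TPM in replicate 4 and 2181, 2189 and 2176 TPM in replicates 1, 2 and 3. Slc7a5, Slc2a1, Slc2a6 and Slc16a3 were among those lowest in replicate 4. This count was made after the values had been seen, the genes of a library are not independent of each other, and no member passed the test of spread, so it is given as a description.

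**Figure D5:**
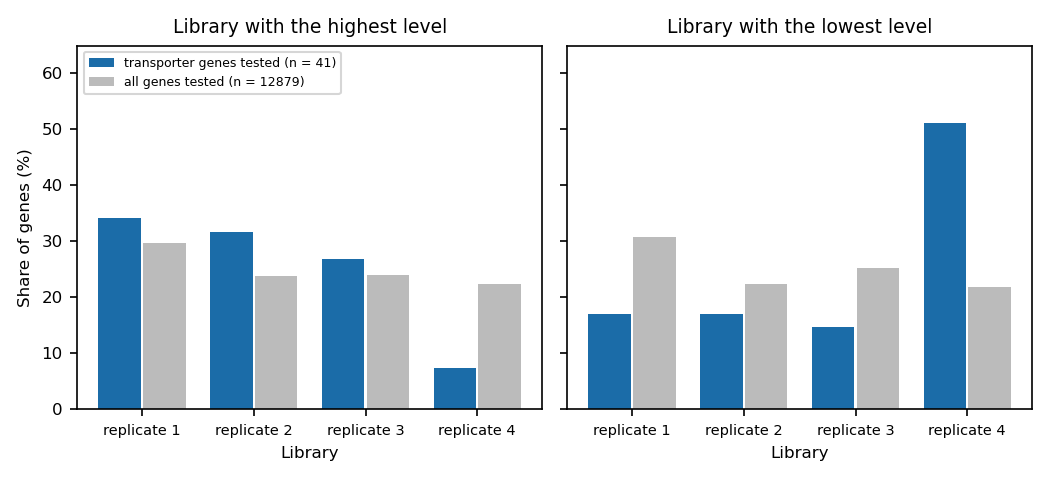
Share of genes, in percent, whose highest (left panel) or lowest (right panel) TMM-scaled CPM was in each library, for the 41 transporter genes tested and for all 12879 genes tested. The transporter genes were most often lowest in replicate 4, at 51.2% beside 21.7%.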

How the data were processed

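Libraries were made from sorted cells with the NEBNext Ultra II RNA kit, per the labels. The authors deposited 1 file per library with unnormalized read counts by gene symbol. The submitters' processing notes name STAR 2.7.10a, SAMtools 1.16.1, HTSeq 0.11.2 and build mm39 (GRCm39); the release of the annotation and the strand and overlap settings of counting are not stated there, so overlapping or antisense genes may share reads. The 5 summary lines held 11.6% to 12.0% of all reads and were left out. There were 0 columns of no sample.

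CPM and TPM were computed here from the deposited counts in Python 3.11.15, with merged exon lengths from GENCODE M21 matched by symbol (80 of 80 members, 98.8% of all counts). GENCODE M21 is on GRCm38, so it supplied lengths, types and overlaps only. Spread was tested in edgeR 4.0.16 (R 4.3.3; filterByExpr, TMM, trended dispersion, chi-square with 3 degrees of freedom), with DESeq2 1.42.0 as an alternative. With 1 group there was no contrast for a quasi-likelihood test. The scripts were tested on simulated data.

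The members, lists, pairs and tests were chosen with earlier results of these data known. Values per library are given for members with a mean of 10 TPM or more and members of the pairs at 1 TPM or more; Slc38a3, Slc16a9, Slc16a7, Slc7a11 and Atf4 fell outside this rule and were chosen after their values were seen. Some members are not reported here by name, though they stay in the counts. Alternatives were leaving out each library, other scaling, filters, dispersions, lengths, thresholds and pseudocounts.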

Additional observations from a re-analysis of the deposited data

Results flagged for a closer look

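Slc7a5 was at 28.7 TPM in replicate 4 and at 34.7 to 35.6 TPM in the other 3 libraries. The gap to the nearest library was 0.871 of the whole range, above Dixon's 95% critical value for 4 samples. It was the 1 gene flagged of the 26 members screened, and chance flags about 1 in 20. Its spread between libraries was not called by the edgeR test.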

How the results depend on the processing

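The count of members with spread beyond the trend was 0 with DESeq2 size factors, without a filter, without any 1 library and with DESeq2 dispersion outliers, and 3 with a common dispersion (Slc38a3 and Slc16a9 among them; 532 of all genes, against 143); the cause was not tested. Members at 1 CPM or more in every library numbered 40 to 41 with TMM scaling or without any 1 library, 41 at a threshold of 0.5 CPM and 34 at 2 CPM. Members at 10 TPM or more numbered 24 to 27 without any 1 library and 25 with the longest transcript; 30 reached 5 TPM and 19 reached 20 TPM. Of the 88 alternative values for the 11 pairs, 85 kept the direction. Slc7a1 minus Slc7a2 turned to 0.24 on CPM without length and 0.36 with the longest transcript, and Slc3a2 minus its summed light chains to -0.32 on CPM; these settings change only the length. With the longest transcript, 22 of 26 named levels moved by more than their SD, by 0.757 to 1.80 times, and leaving out a library moved 0 of 104 values that far. No paired analysis was possible because there is 1 group. At these depths members under about 10 counts cannot be ranked.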
